A study of Mus musculus with 6 samples.

Results

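The circular RNA libraries of the study were 2 of its 6 libraries, 1 from mouse GC-2 spd(ts) cells treated with bisphenol A (BPA) and 1 from cells given its solvent. They were taken as every circular RNA (circRNA) of the deposited circRNA table, which listed 9158 circRNAs. Class, genomic span and number of circRNAs per gene were described over all 9158, and ratios over the 457 with at least 10 back-splice events in the 2 libraries together. GC-2 spd(ts) is a line made from mouse spermatocytes, the germ cells that enter meiosis. The cells of both groups were held without serum for 12 h. The BPA group then spent 48 h in medium with 10% serum and 120 µM BPA, a building block of polycarbonate plastics, which had been dissolved in dimethyl sulfoxide, and the control group in the same medium with 0.1% dimethyl sulfoxide and no BPA. Before sequencing, ribosomal RNA was removed and linear RNA was digested with RNase R, an exonuclease that spares closed circles. The mRNA and small RNA libraries were made from other portions of the RNA of the same cells, and they are used here as the linear counterpart of the circles and for miRNA sequences.

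A circRNA forms when the spliceosome joins the 3′ end of an exon to the 5′ end of the same or an upstream exon of one transcript. Such back-splicing competes with linear splicing, and it is known to be favoured by long flanking introns with paired repeats. Circles have no ends for exonucleases to act on and are usually long lived. Another kind, the circular intronic RNA, is a lariat whose tail has been trimmed up to the branch point and whose 2′-5′ bond has resisted debranching.

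Each group was 1 library, so no difference below has a replicate check, no p-value was computed, and the ratios include whatever else set the 2 cultures apart. The control library held 12909 events and the BPA library 17586. A circRNA at 0 could make up as much as 0.0232% of the events in control and 0.0171% with BPA. Intervals are 95% intervals of counting error alone, and events copied by PCR, with no molecular identifiers to tell copies apart, need not be separate molecules. Why each event counted 2 in the deposited values is not stated in the labels or the file. The intervals rest on taking each step of 2 as 1 event. The label of the cells was compared with the mRNA libraries. Of 7 germ cell identity markers 5 were at 0 or not listed, and of 10 meiotic markers 8, with Piwil2 the highest at 7.28 in control and 12.5 with BPA. The summed deposited mRNA value of 8 peritubular and fibroblast markers was 141511 in control and 65375 with BPA, led by Col1a1 and with Thy1 at 0 or not listed. That of 8 Sertoli cell markers was 2507 and 2341, led by Gata4, and that of 6 Leydig cell markers 1871 and 2244, led by Nr5a1, with 1 and 3 of them at 0 or not listed. Among meiotic genes outside these marker lists, Syce2 had 1720 and 2069. The mRNA libraries therefore held almost no RNA of the germ cell and meiotic markers searched, none of the marker genes searched was the host of a circRNA, and the part that a difference between the cultures in fibroblast genes could have in the circRNA ratios was not tested.

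The back-splice junction is the part of a circRNA that no linear transcript of the gene holds, and it is what was counted. The exons between the 2 ends of a circle were not observed. Exon counts, spliced lengths, coding content and inner sequences are those annotated for the longest listed transcript that matches both ends. The junctions of the 5 circRNAs with the most events are printed because they carry the most precise ratios, and those of 2 pairs of isoforms because they show how circles of one gene share a splice site. In each line the 15 lower-case bases are the end of the donor exon and the 15 capitals the start of the acceptor exon, 5′ to 3′ on the strand of the gene, from GRCm38. The names give the positions of the outermost bases of the circle. The 2 Zfx circles have the same lower-case part, which is a shared donor, and the 2 Cnot2 circles the same capitals, which is a shared acceptor.
Nfix, chr8:84771784-84772315, minus strand: ttgtccacactccggGATGAGTTCCACCCG
Pvt1, chr15:62107148-62107465, plus strand: agctccctctaaaatGTCTGATTTTCTTAA
Rras2, chr7:114058540-114060419, minus strand: gaccatcagagacagTCCTATTTTGTGACG
Cnot6l, chr5:96128943-96134132, minus strand: ctctaggtttaacagACTAATAGGGATGCC
Ptchd4, chr17:42377160-42377640, plus strand: ctttcttcgccatggGATGGGAGGAACAGT
Zfx, chrX:94098283-94114263, minus strand: accttatgatctcttGTGCGTATAACTGTG
Zfx, chrX:94098283-94102380, minus strand: accttatgatctcttGTGTTCTGGCTGATG
Cnot2, chr10:116527827-116549175, minus strand: cggtcagagaaagatAGGGAGAACTGGTGG
Cnot2, chr10:116517317-116549175, minus strand: tatacgggcaacaaaAGGGAGAACTGGTGG

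A whole circle is short enough to print for Med13l, which encodes a subunit of the Mediator kinase module. Its circle is exon 2, at chr5:118593333-118593570 on the plus strand of GRCm38, and was among the 5 shortest of the circRNAs compared. It is 238 bases long with 50% G and C, and lies within the coding sequence. The capitals are the 15 bases on either side of the back-splice, where the last base is joined to the first.
Med13l, exon 2: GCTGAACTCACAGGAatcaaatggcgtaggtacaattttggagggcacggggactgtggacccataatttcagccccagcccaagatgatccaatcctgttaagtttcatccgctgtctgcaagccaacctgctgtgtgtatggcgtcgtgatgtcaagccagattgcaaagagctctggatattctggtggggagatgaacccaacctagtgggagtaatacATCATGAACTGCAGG
It had 47 events in control and 40 with BPA, and the log2 ratio was -0.50 (95% interval -1.15 to 0.13), so the libraries did not differ beyond counting error. Its length is not a multiple of 3, which leaves a remainder of 1.

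The BPA library held more kinds of circle. It had at least 1 event for 6485 circRNAs from 3240 host genes, and the control library for 4706 from 2657. Most circles were seen once, 2619 (55.7%) in control and 3922 (60.5%) with BPA. Drawn down to the 12909 events of the control library, the BPA library would be expected to hold 5349 circRNAs, which is still above the 4706 of control. The events were also spread more evenly. The 10 most abundant circRNAs of each library made up 10.8% of the events in control and 9.05% with BPA, and the 100 most abundant 28.1% and 25.0%. With 1 library a group, whether this goes beyond the difference between 2 cultures treated alike was not tested.

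The libraries shared 2033 circRNAs, which were 43.2% of those in control and 31.3% of those with BPA, and which held 69.9% and 63.3% of the events. Another 2673 were in the control library alone and 4452 in the BPA library alone. Of these, 1837 and 3225 had a single event, and the highest count of a circle missing from the other library was 10 in either direction. No circle with more than 10 events in either library was therefore absent from the other. Being listed in circBase, a catalogue of circRNAs that the table gave for 714 of the 9158, went with being seen in both libraries. This held for 62.6% of the listed circles and for 18.8% of the others, and the listed circles also had more events, 4 at the median against 1. Circles in circBase made up 31.8% of the events in control (31.0 to 32.6%) and 30.3% with BPA (29.6 to 30.9%).

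The most abundant circle was exon 2 of Nfix, a transcription factor of the nuclear factor I family, with 441 events in control and 506 with BPA. Events were scaled by the trimmed mean of M-values (TMM), which is meant to centre the ratios of the bulk of the circles. It left the median log2 ratio of the 457 circles compared at 0.16. With it, the log2 ratio of the Nfix circle was -0.08 (-0.26 to 0.11). Its place depends on the scaling: it made up 342 per 10000 events in control and 288 with BPA, a ratio of -0.25 (-0.43 to -0.06) by share of all events, and without scaling the ratio was 0.20 (0.01 to 0.39). Exon 2 of Pvt1, a long noncoding RNA encoded beside Myc, had 287 events in control and 225 with BPA, a ratio of -0.62 (-0.88 to -0.37). Exon 3 of Ptchd4, which encodes a patched-domain protein, had 129 and 87, a ratio of -0.84 (-1.25 to -0.44). Both circles were lower with BPA beyond counting error.

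Circles of other abundant hosts were higher in the BPA library. Exons 2 to 4 of Cnot6l, a deadenylase subunit of the CCR4-NOT complex that shortens mRNA tails, had 72 events in control and 166 with BPA, a ratio of 0.93 (0.52 to 1.35). The predicted gene Gm21992 had 53 and 105, a ratio of 0.71 (0.22 to 1.22). Exons 2 to 4 of Rras2, a Ras-like GTPase, had 106 and 167, a ratio of 0.38 (0.02 to 0.75). The 3 intervals left out equality, but by share of all events that of Rras2 did not, with 0.21 (-0.15 to 0.57). The remaining abundant circles did not differ beyond counting error, namely the 2 circles of the X-linked transcription factor Zfx, with 101 and 107 and with 71 and 84 events, that of the forkhead factor Foxn2 with 64 and 72, and that of Erbin, a scaffold of ErbB2, with 66 and 65. No circle of these 10 reached a 2-fold difference with TMM scaling, while Ptchd4 did by share of all events, with -1.01, and Cnot6l without scaling, with 1.199. These other scalings of single circles were chosen after seeing the data.

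Over the 457 circRNAs compared, which came from 382 hosts and held 46.0% and 43.2% of the events, 81 (17.7%) were at least 2-fold higher with BPA and 49 (10.7%) at least 2-fold lower, together 28.4%. The interval left out equality for 29 (6.35%) of the higher and 20 (4.38%) of the lower ones, and, with no limit on the fold, for 36 (7.88%) on the higher and 26 (5.69%) on the lower side. The median log2 ratio was 0.16 and the quartiles of the ratios were -0.43 and 0.80. The balance of higher and lower circles depends on the scaling. Of the circles past 2-fold, 62.3% were higher with TMM scaling, 50% when each library was scaled by its total, with 59 in either direction, and 79.6% without scaling, with 125 higher and 32 lower. The median moved by -0.17 and by 0.27 under these other scalings, so each ratio here reads relative to the scaling and not as a number of molecules per cell.

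Large ratios belonged to circles with few events. At least 2-fold differences were found for 36.7% of the 188 circles with 10 to 14 events, 30.4% of the 168 with 15 to 29 and 9.90% of the 101 with 30 or more, where 3 were higher and 7 lower. Of those 3 higher circles, 2 were named after their values were seen. They were exons 2 and 3 of the membrane receptor Dcbld2 with 21 and 71 events, a ratio of 1.46 (0.76 to 2.26), and the lipid transfer protein Esyt2 with 9 and 28, a ratio of 1.31 (0.24 to 2.63). The 7 lower ones included circles of Fgfr2 with 24 and 9 events and of Nedd4 with 25 and 14. The standard deviation of the log2 ratio fell along the same bins from 1.26 to 0.95 and 0.63. At the filter itself, the 48 circles with exactly 10 events had a median ratio of -0.01 and the 68 with 9, just outside, 0.02. In the authors' deposited table, 25 circRNAs had a p-value under 0.05 and 0 an adjusted p-value under 0.05, from a comparison of 1 library with 1 by a method that no label names. Its log2 fold change was taken without scaling for depth, as shown by the Arhgap10 circle with 6 events in both libraries, for which the authors' deposited table gave 0.

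**Figure D1:**
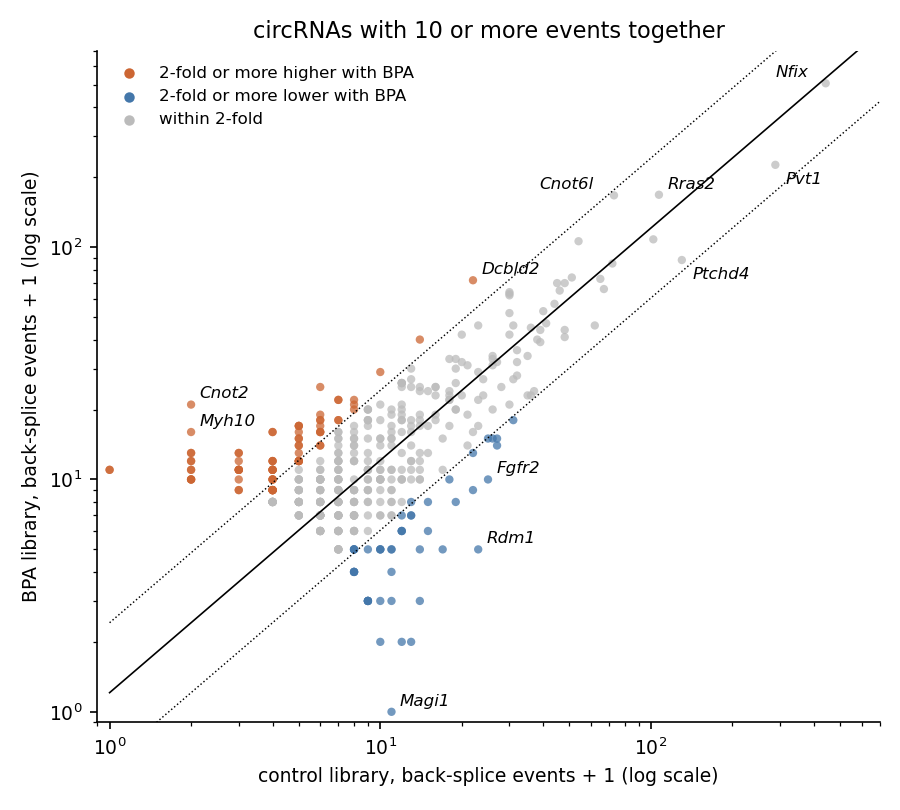
Back-splice events plus 1 in the control library (x axis, log scale) and the BPA library (y axis, log scale) for each of the 457 circRNAs with 10 or more events together. The solid line marks equality after TMM scaling and the dotted lines a 2-fold difference without the 0.5 events added to the ratios. The 101 circles with 30 or more events lie close to the solid line, with 10 of them past 2-fold.

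Among the 10 largest differences on the higher side, 2 circles had no event in control. Arhgap32, which encodes a GTPase-activating protein, and Mpp6, a membrane-associated guanylate kinase, each had 0 events in control and 10 with BPA. The interval of each log2 ratio began at 0.89 and had no upper end. The circle of exons 2 to 4 of Cnot2, a scaffold of the CCR4-NOT complex to which Cnot6l also belongs, had 1 event in control and 20 with BPA, and a log2 ratio of 3.50 (1.40 to 9.42). It had the smallest p-value in the authors' deposited table, 0.0019, with an adjusted p-value of 0.865. Exon 2 of Myh10, the heavy chain of nonmuscle myosin IIB, had 1 and 15 events, a ratio of 3.10 (0.93 to 9.03).

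The other 6 had 1 event in control and 10 to 12 with BPA. They came from Cept1, which makes choline and ethanolamine phospholipids, Tbc1d20, a GTPase activator of Rab proteins, the long noncoding RNA Lncpint, the deubiquitinase Zranb1, the glycogen branching enzyme Gbe1, and Srbd1. Their log2 ratios ran from 2.53 to 2.79, and the lower ends of their intervals from 0.23 to 0.55, so the size of each difference is poorly fixed by these counts. The Zranb1 circle is of the exon and intron class.

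On the lower side, the largest difference was an intronic circle of Magi1, a scaffold of tight junctions, with 10 events in control and 0 with BPA. The interval of its log2 ratio ended at -1.44 and had no lower end. Exons 10 and 11 of Ckap5, a microtubule polymerase, had 12 and 1 events, a log2 ratio of -3.33 (-9.28 to -1.10). Exons 17 to 20 of Epb41l5, a FERM-domain protein of epithelial polarity, had 11 and 1. Exons 2 and 3 of Rdm1, named for its RAD52 motif, had 22 and 4, a ratio of -2.60 (-4.73 to -1.18), with the most events of the 10. A longer Ptchd4 circle had 13 and 2. Another 4 had 9 to 16 events in control and 2 to 4 with BPA, and came from Kansl2, a subunit of the NSL acetyltransferase complex, the endosomal protein Ankfy1, the amino acid transporter Slc38a10 and the N-myristoyltransferase Nmt1, with ratios from -2.34 to -1.86.

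**Figure D2:**
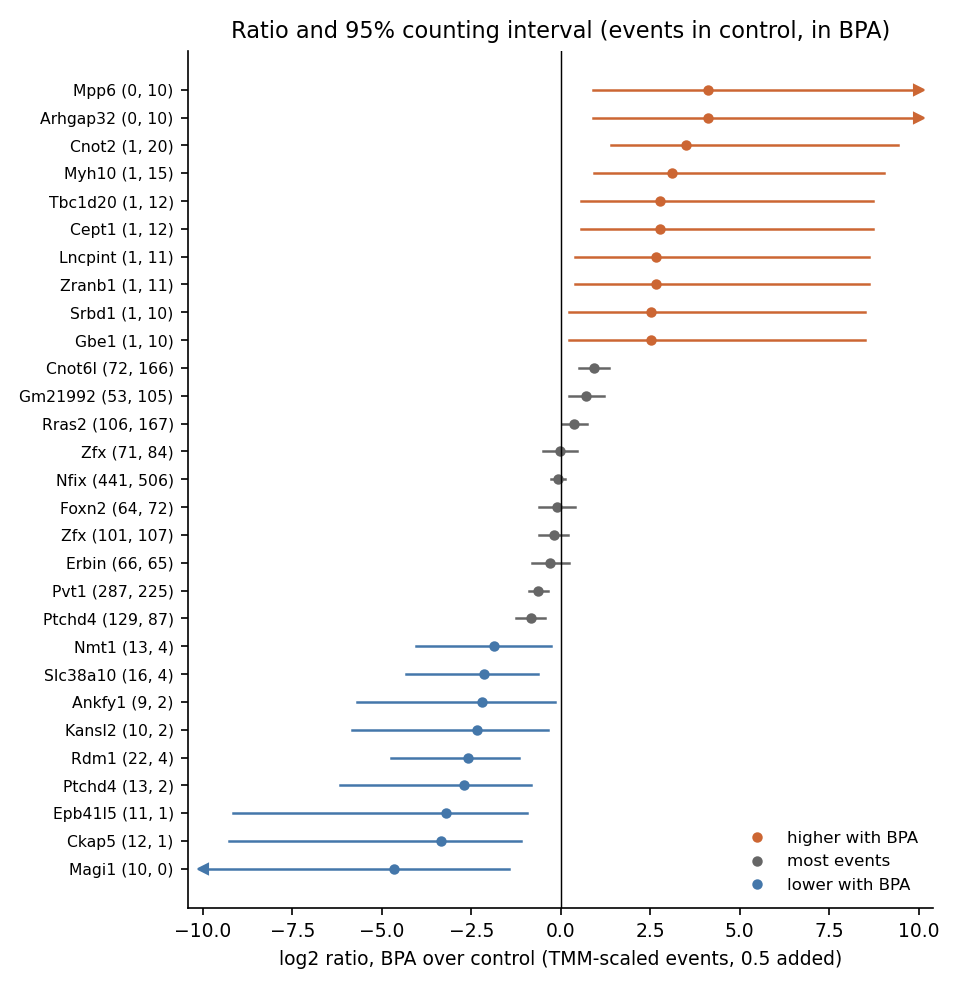
Log2 ratio of BPA over control (x axis, TMM-scaled events with 0.5 added) for the 10 circRNAs with the most events, the 10 with the largest higher ratio and 9 of the 10 with the largest lower ratio whose interval leaves out equality, with events in control and in BPA in brackets. Points are ratios, lines are 95% counting intervals, and an arrow marks an interval with no end because 1 library had 0 events. The 10 circles with the most events have short intervals near 0, from -1.25 for Ptchd4 to 1.35 for Cnot6l at their ends, and those with 10 to 26 events have long ones.

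Nearly all events came from exonic circles as the table classes them. These were 8841 of the 9158 circRNAs and 97.6% of the events in control (97.3 to 97.9%) and 98.2% with BPA (98.0 to 98.4%). The 134 circles of exon and intron sequence gave 1.33% and 1.15%, and the 183 intronic circles 1.05% (0.88 to 1.24%) and 0.677% (0.561 to 0.809%). Most exonic circles sat at annotated splice sites. The rule by which the table set the class and the listed transcripts is not known, so this may follow from that rule. Of 8834 with 1 strand, 8730 (98.8%) had AG before their first base and GT after their last, and 8734 began and ended at exon boundaries of 1 listed transcript in the GENCODE M21 annotation of GRCm38. Of the exon and intron circles, 56.0% had AG and GT at these places. The most abundant of them were a 41421-base circle over Lncpint and neighbouring genes, with 14 and 12 events, one of the signalling adaptor Asap1 with 13 and 9, one of the focal adhesion kinase Ptk2 with 8 and 8, and one of Pvt1 and Gm27957 with 7 and 8. None of these 4 differed beyond counting error.

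Nearly all intronic circles began where an intron begins. Whether the rule that set the class required such a start is not known. Where several introns of the listed transcripts held a circle, the one beginning nearest to it was used. All 183 lay inside an annotated intron and 181 (98.9%) began at its first base, the 5′ splice site. Of those 181, 3 covered the whole intron and 178 ended before its last base. The end lay 25 bases before the 3′ splice site at the median, with quartiles of 21 and 31 bases, and 175 ended within 100 bases of it. Their median length was 445 bases. The 2 that did not start at a 5′ splice site were both of Magi1, the 18560-base circle named above and one of 347 bases with 0 and 2 events. Both begin at the same base, 213809 bases after the first base of an annotated intron. Both also have AG before their first base and GT after their last, as most exonic circles do. Whether they are lariats was not tested.

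Summed over the class, intronic circles had 135 events in control and 119 with BPA, and a log2 ratio of -0.45 (-0.82 to -0.09). All circles together had 0.17, a value that the TMM factors alone set. The Magi1 circle gave 10 of the 135, and without it the sum was -0.34 (-0.72 to 0.03), an interval that holds 0. Without scaling the class had a ratio of -0.18 (-0.55 to 0.18), which holds 0 too, and by share of all events -0.63 (-0.996 to -0.262). Circles starting at a 5′ splice site had 125 and 117 events. Single intronic circles were too sparse to compare. After Magi1, those with the most events included circles of the nuclear body gene Pml with 6 and 2 events, of the calcium channel Itpr3 with 3 and 2 and of the small GTPase Rab1b with 3 and 1, and 7 of the 183 were seen in both libraries.

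**Figure D3:**
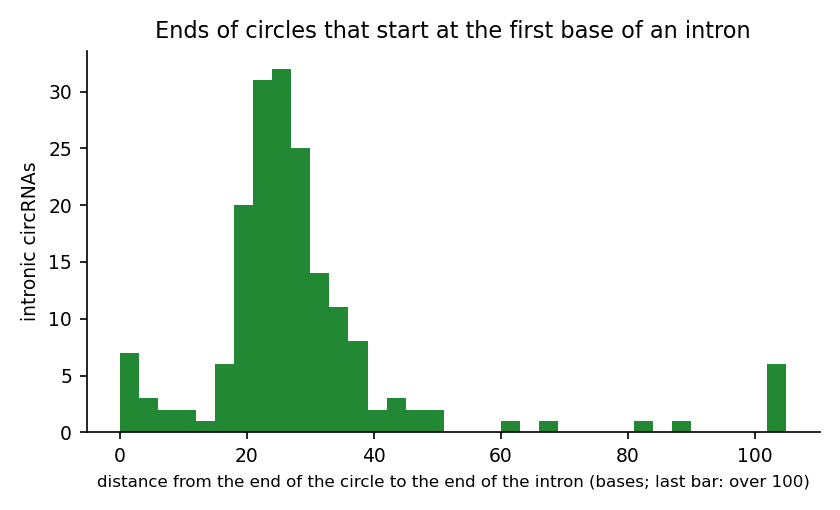
Number of intronic circRNAs (y axis) by the distance in bases from the end of the circle to the end of its intron (x axis), for the 181 circles that begin at the first base of an intron, in bins of 3 bases. The last bar holds the circles that end more than 100 bases before the intron does. Most bars stand near the median of 25 bases.

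A typical exonic circle joined few exons. Over the 8737 circles with a transcript structure the annotated median was 3 exons and a spliced length of 451 bases. Of these circles, 349 were single exons. They began with exon 2 of the transcript in 32.7%, with exon 1 in 9 circles, and 5 ended with the last exon, which has no donor site in the matching transcript. The introns beside them were long, with medians of 6264 bases upstream and 4427 downstream, beside 2137 for the median intron of the same transcripts. The circles compared, which had 10 or more events, were flanked by longer introns still, 15014 and 11889 bases, and 53.8% of them began with exon 2. Whether a circle lay in coding sequence also varied, with 79.4% inside it and 13.2% holding the start codon. Circles with the start codon had a median ratio of 0.42 over the 96 compared, with 22 higher and 4 lower, beside 0.16 over all 457, of which 17.7% and 10.7% were called.

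Long circles made up more of the BPA library than of the control library. Single exon circles gave 12.7% of the events in control (12.1 to 13.2%) and 10.1% with BPA (9.67 to 10.6%), a summed log2 ratio of -0.15 (-0.25 to -0.05). Circles of 2 or 3 exons had a ratio of 0.13 (0.08 to 0.17) and those of 4 or more exons 0.35 (0.30 to 0.41), with 33.1% of the events in control and 37.5% with BPA. Genomic span gave the same order. Circles that spanned under 1000 bases had a ratio of -0.20 (-0.27 to -0.12), those of 1000 to under 10000 bases 0.21 (0.17 to 0.26) and those of 10000 or more 0.31 (0.25 to 0.37). By spliced length, the ratios were -0.02 under 300 bases, 0.15 from 300 to under 600 and 0.40 at 600 or more.

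A few abundant circles carry part of this difference. Nfix, Pvt1, Ptchd4 and Foxn2 are all single exons, and without the 10 circles with the most events the ratio of single exon circles was 0.05 (-0.10 to 0.19). The difference between 4 or more exons and 1 exon fell from 0.51 to 0.31, while that between the long and short spans was 0.51 with all circles and 0.45 without those 10. Among circles with under 10 events the differences were 0.28 by exons and 0.47 by span. These circles share a pair of libraries, so the order by size is a property of these 2 libraries, and whether the length of the RNA or the RNase R digestion differed between them was not tested. The median span was 6148 bases in control and 6738 with BPA. The shortest compared circle spanned 234 bases of Uhrf2, a ubiquitin ligase that reads methylated DNA, with 7 and 20.

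**Figure D4:**
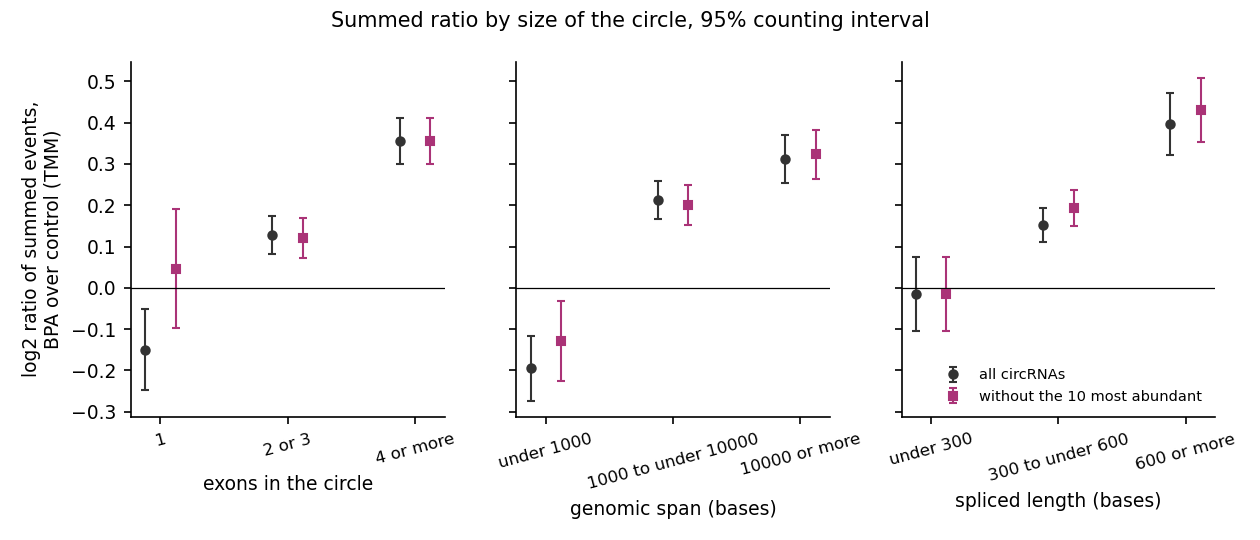
Log2 ratio of summed events, BPA over control (y axis, TMM scaling), for circRNAs grouped by number of exons, genomic span and spliced length (x axes). Circles are all circRNAs, squares leave out the 10 with the most events, and bars are 95% counting intervals. The ratio is lowest in the smallest class of each panel and highest in the largest, from -0.20 to 0.40 over all circRNAs.

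Host genes often gave several circles. Of 3954 hosts as the table assigns them, 2026 (51.2%) had 2 or more, 428 had 5 or more and 60 had 10 or more. The table gave several host genes for 77 circles. Isoforms shared splice sites, since 18.0% of 7397 acceptors and 14.2% of 7799 donors were used by 2 or more circles. With events summed by host, 695 hosts were compared, of which 127 (18.3%) were at least 2-fold higher with BPA and 61 (8.78%) at least 2-fold lower.

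Arhgap10, which encodes a GTPase-activating protein, had the most circles. There were 27 of them, 18 in control and 20 with BPA, from 11 acceptors and 11 donors, with 109 events in control and 149 with BPA and a summed ratio of 0.18 (-0.19 to 0.55). Its main circle, exons 14 to 18, had 35 and 44 events and made up 30.6% of the total. Another 4 circles end at the same exon 18, beginning at exon 15 with 13 and 18 events, at exon 16 with 9 and 17, at exon 12 with 3 and 11, and at exon 11 with 0 and 1. The 7 compared ran from -0.46 (-1.61 to 0.66) for exons 9 to 13 to 1.44 (-0.32 to 4.08) for exons 12 to 18, and their intervals overlap.

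The other hosts with the most circles were Phkb, a subunit of phosphorylase kinase, and the corepressor Rere with 20 each, the ciliary motor Dync2h1, Ckap5, the dystrophin relative Utrn and Thada with 19 each, and the leukemia fusion partner Mllt10 with 17. Of these 8 hosts, the interval left out equality for 2. Ckap5 had 35 events in control and 17 with BPA, a ratio of -1.29 (-2.24 to -0.44), and Thada had 9 and 28, a ratio of 1.31 (0.24 to 2.63). Thada also had 5 circles in control and 17 with BPA. Many circles thus did not mean many events, and Nfix had 4 circles, of which the main one held 99.0% of its events.

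Where a host had at least 2 circles past the filter, the ratios of its circles could be set side by side. Of 59 such hosts, 28 had circles at least 2-fold apart, but the 2 intervals were apart in 1 of them. In Pvt1, the circle from exon 2 that ends at position 62175548 of chromosome 15 had 8 and 5 events and the one that ends at 62149352 had 5 and 8. In Ptchd4, both circles end at the same donor, and the longer one, with 13 and 2 events, was further below equality than exon 3 alone, with 129 and 87. In Foxn2, exon 2 alone had 64 and 72 events and a longer circle from the same acceptor 4 and 11. In Crim1, a transmembrane protein that binds bone morphogenetic proteins, circles from the same site had 9 and 4 and 4 and 6 events, and in Papd7, a noncanonical poly(A) polymerase, 38 and 38 and 4 and 11. In all of these the intervals overlap. Overlap does not show that 2 ratios are equal, and the ratios of 2 isoforms were not tested against each other.

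The exception was Cnot2, a host named here after its values were seen. Both of its circles begin at exon 2, as the shared capitals of the printed junctions show. The circle that ends at exon 3 had 13 events in control and 12 with BPA, a ratio of -0.38 (-1.65 to 0.86), and the one that goes on to exon 4 had 1 and 20, a ratio of 3.50 (1.40 to 9.42). The start codon lies in both circles. In control the shorter circle had the more events, and with BPA the longer one. Cnot6l, of the same complex, had no such split, with 72 and 166 events for exons 2 to 4 and 7 and 13 for exons 2 to 5.

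The mRNA of the hosts gives the linear counterpart. Genes with more mRNA were more often hosts. A circle was found for 44.8% of the 6500 genes with a mean deposited mRNA value of 1000 or more, 19.1% of 4852 from 100 to under 1000, 2.08% of 3899 from 10 to under 100 and 0.625% of 6876 below 10. Among hosts, though, the number of events followed the mRNA value weakly, with a Spearman rho of 0.14 in control and 0.12 with BPA over 3894 hosts. Hosts share libraries and have few events each, so these values are descriptions across genes, which are not independent replicates.

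Circular and linear ratios were weakly correlated across hosts. Over the 688 compared hosts with an mRNA value, Pearson's r between the 2 log2 ratios was 0.07 and Spearman's rho 0.09, and over the 181 with 30 or more events 0.11 and 0.13. Circular ratios were also wider, with a standard deviation of 1.02 across hosts beside 0.30 for mRNA, and counting error is part of the first. The linear log2 ratio was within 0.5 of 0 in 632 of the hosts. How far this narrow range and counting error limit the correlations was not tested. The linear ratio was at least 2-fold higher in 2 of these hosts and lower in 5, the circular ratio in 125 and 61. The counting interval of the circular ratio left out the linear ratio in 108 of the 688 hosts, 80 with the circles above and 28 below. This split was counted with TMM scaling alone, and the linear ratio was given no error. The median difference, circular less linear, was 0.21, and it was 0.04 with scaling by the total and 0.49 without scaling, since the 2 tables were scaled separately. In the 20 hosts whose mRNA was 0.5 to 1 higher on the log2 scale, the summed circular ratio was 0.35 (0.07 to 0.65), and in the 29 whose mRNA was 0.5 to 1 lower, -0.26 (-0.45 to -0.07). The 5 hosts whose mRNA was at least 2-fold lower did not continue that order, with 41 events in control and 66 with BPA and a summed ratio of 0.41 (-0.17 to 1.01), and the 2 whose mRNA was at least 2-fold higher had 6 and 14 events, a ratio of 0.88 (-0.52 to 2.62).

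Named hosts show both patterns. Pvt1 had fewer events in the BPA library, with 312 in control and 249 with BPA over the 9 circles assigned to it alone. Circles assigned to both Pvt1 and Gm27957 are not in this sum. Its linear value was higher, 398 beside 285 in control, a log2 ratio of 0.48. Rdm1 had 28 and 8 events, and a linear ratio of 0.72 from 108 to 179. Cnot2 had 16 and 38 events and a linear ratio of -0.30. Fgfr2, a fibroblast growth factor receptor, was lower in both, with 31 and 14 events, a ratio of -1.39 (-2.45 to -0.47) and a linear ratio of -0.70. Among hosts whose circular interval left out the linear ratio, the 10 with the largest difference in each direction were taken. Of these 20 hosts, 19 had 10 to 17 events and Rdm1 had 36. The circles of Scyl3 had 10 events in control and 0 with BPA beside a linear ratio of 0.44, and those of Tmem164 had 2 and 14 beside a linear ratio of -2.08. Rdm1, Fgfr2, Scyl3 and Tmem164 were named after their values were seen.

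**Figure D5:**
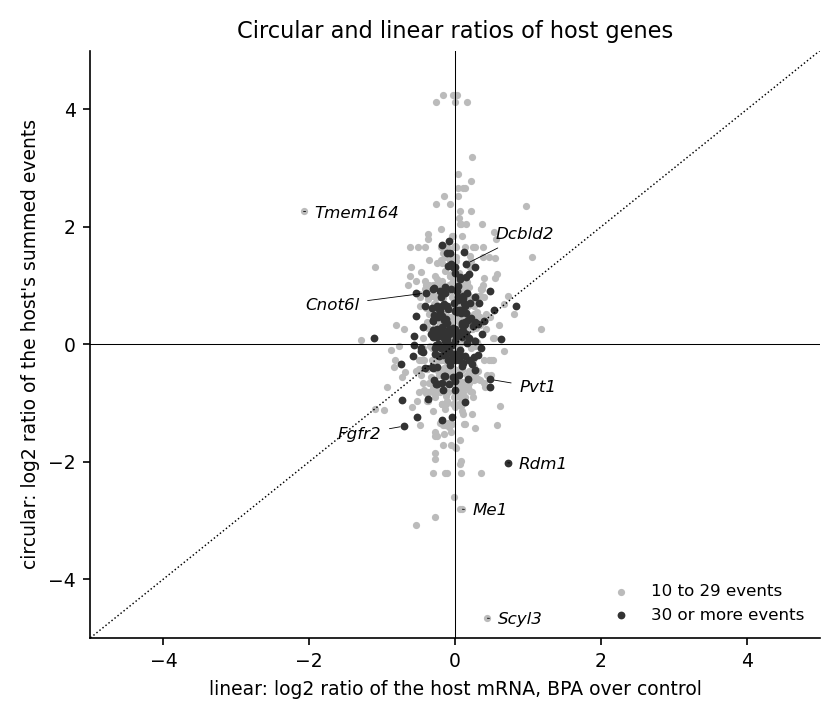
Log2 ratio of the mRNA of a host gene (x axis, pseudocount of 1) and of the summed back-splice events of its circles (y axis, TMM scaling), BPA over control, for the 688 hosts with 10 or more events and an mRNA value. The dotted line marks equal ratios, dark points are the 181 hosts with 30 or more events, and the points form a vertical band, since the linear ratios had a standard deviation of 0.30 and the circular ones 1.02.

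Hosts were also described by the function of the gene, over 15 lists. The values beside which each list reads are those of all 695 hosts compared, a median ratio of 0.18 with 18.3% higher and 8.78% lower. Of 40 genes whose circles are well known from other tissues, 31 were hosts, 17 were compared, 2 were higher and 0 lower, and the median was 0.17. Besides Nfix and Pvt1, they included the ETS factor Elf2 with 55 and 75 events and Hipk3, a kinase whose exon 2 forms one of the best studied circles, with 39 and 52 for that circle, a ratio of 0.14 (-0.49 to 0.78). Of chromatin regulators 21 were compared, 5 higher and 3 lower, with a median of 0.26. The Polycomb methyltransferase Ezh2 had 41 and 60 events, the histone reader Phf21a 45 and 42, the acetyltransferase Kat6b 24 and 18 and the methyltransferase Ash1l 15 and 27, each within counting error.

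Of ubiquitin ligases and deubiquitinases 18 were compared, 3 higher and 2 lower, with a median of 0.36. The ligases Nedd4, with 43 and 34 events, and Huwe1, with 25 and 27, were within counting error. The deubiquitinases Usp3, with 8 and 30, and Zranb1, with 7 and 26, had ratios of 1.57 (0.47 to 2.97) and 1.55 (0.38 to 3.07). Of signalling kinases and phosphatases 21 were compared, 4 higher and 3 lower, with a median of 0.18. Among these the Mediator kinase Cdk8, with 53 and 74 events, had a ratio of 0.20 (-0.32 to 0.74).

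Of cell cycle and DNA repair genes 15 were compared, 3 higher and 0 lower, with a median of 0.11. The spindle checkpoint kinase Bub1b had 49 and 31 events, a ratio of -0.93 (-1.63 to -0.26), and the ubiquitin ligase Rad18 of post-replication repair 8 and 26, a ratio of 1.37 (0.24 to 2.78). The cohesin subunits Stag1, with 18 and 21, and Stag2, with 6 and 13, were within counting error. Of cytoskeleton and adhesion genes 18 were compared, 1 higher and 4 lower, with a median of 0.20. Alpha-catenin Ctnna1 had 43 and 51 events, the formin Diaph3 26 and 42 and Ptk2 24 and 34. Microtubule and cilium genes had a median of -0.17 over 11, with 1 higher and 1 lower, and the microtubule minus-end protein Camsap1, with 41 and 44 events, had the most. Of RNA-binding and translation genes 18 were compared, 1 higher and 2 lower, with a median of 0.29. Rbms1 had 41 and 44 events, and Stau2 16 and 32.

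Genes of the endoplasmic reticulum, Golgi and vesicle traffic had 5 hosts higher and 0 lower of 14 compared, and a median of 0.56. Their summed events were 164 in control and 281 with BPA, a ratio of 0.50 (0.22 to 0.79) over 46 hosts. The 5 hosts, named after their values were seen, were the lipid transfer protein Vps13b with 12 and 33 events, the stress sensors Atf6 with 5 and 14 and Ern1 with 4 and 12, the clathrin adaptor Picalm with 2 and 12 and the sorting nexin Snx13 with 1 and 11. The intervals of Atf6 and Ern1 held 0. The linear ratios of Atf6 and Ern1 were 0.55 and 0.58, those of the other 3 from 0.06 to 0.15. Asph, with 27 and 29 events, had the most of the list and a ratio of -0.17. Of autophagy, lysosome and apoptosis genes 5 were compared, 2 higher and 1 lower, and the summed events of 20 hosts were 50 and 100, a ratio of 0.72 (0.22 to 1.25). They were led by Birc6, an inhibitor of apoptosis, with 9 and 18, and Faf1, a regulator of Fas signalling, with 8 and 14.

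Genes of the integrated stress response and amino acid supply had a median linear ratio of 0.36 over the 2 hosts compared, Mthfd1l, an enzyme of mitochondrial folate metabolism, with 13 and 17 events, and the tRNA synthetase Eprs with 6 and 8, whose circular ratios were 0.10 and 0.11. Over all 20 hosts of this list the summed events were 38 in control and 62 with BPA, a ratio of 0.43 (-0.17 to 1.06). Below the filter, 12 of the hosts with the most events were looked at singly, all with a linear ratio above 0. Of these 12, 5 had more events with BPA, 5 more in control and 2 as many in both. The rest of the hosts below the filter were left out of this count. Of the 12, the 2 with the highest linear ratio, named after their values were seen, were among those with more events with BPA. The cystine transporter Slc7a11 had 0 events in control and 8 with BPA and a linear ratio of 2.02, and Cth, which makes cysteine, had 1 and 8 and a linear ratio of 2.12. The circle of Cth exons 2 to 4 had 0 and 8 events and that of Slc7a11 exons 2 to 6 had 0 and 6. Psph, which makes serine, had 2 and 0 events beside a linear ratio of 1.44, and the tRNA synthetase Aars 4 and 1 beside 0.61, both also named after their values were seen. Of NRF2 targets 4 were compared, 0 higher and 1 lower, and the lower one was the malic enzyme Me1, with 14 and 2 events over 6 circles and a linear ratio of 0.10. The drug exporters Abcc1, with 15 and 19, and Abcc4, with 8 and 10, and the glutathione synthesis enzyme Gclc, with 4 and 7, were within counting error.

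Nuclear receptors and their coregulators gave 16 hosts, of which 5 were compared, 0 higher and 1 lower, with a median of 0.17. Med13l had 51 and 42 events over its 4 circles, the corepressor Ncor1 15 and 23, and the acetyltransferase Ep300 9 and 21. Of 43 genes of spermatogenesis and meiosis, 23 were listed in the mRNA table and 5 were hosts. Among these Spag9, a scaffold of JNK signalling, had 7 and 14 events, Spata5 5 and 4, Tex14 0 and 2, and Syce2 and Spata6 0 and 1 each. Genes that form or break down circRNA gave 16 hosts with 24 events in control and 28 with BPA, and none reached 10 events. The splicing factor Mbnl2, with 6 and 2, and the RNA-binding protein G3bp1, with 3 and 5, had the most.

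Circles can hold sequences that match the seed of a miRNA, bases 2 to 8 of its mature form, which are in capitals below. The miRNAs printed are the 4 with the most reads in the small RNA libraries of the same cells among those that matched a RefSeq mature sequence by name (597 of 931), with sequences from RefSeq on GRCm38.p6, and let-7f and let-7i share a seed. A 7-base DNA match to the seed was searched on the strand of the circle, across the back-splice junction too. The search covered the 8737 circles with a spliced sequence, which was built from the annotated exons between the ends.
miR-148a-3p: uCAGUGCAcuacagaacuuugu
let-7f-5p: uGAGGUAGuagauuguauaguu
let-7i-5p: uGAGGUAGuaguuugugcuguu
miR-10a-5p: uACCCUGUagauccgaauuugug
The match to miR-148a-3p, TGCACTG, was in 485 circles (5.55%) and in 22 (4.93%) of the 446 compared. That to let-7, CTACCTC, was in 359 (4.11%) and 15 (3.36%), and that to miR-10a-5p, ACAGGGT, in 247 (2.83%) and 12 (2.69%). No circle held more than 3 matches to one of these seeds. The circles compared thus held them about as often as all circles did. The exon 2 circle of Hipk3 held 1 match to miR-148a-3p and 1 to miR-10a-5p, the Ptchd4 exon 3 circle 1 to let-7, and the Cept1 circle named above 1 to miR-10a-5p. A match is a string of letters and does not show that a miRNA binds.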

How the data were processed

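The circRNA libraries were 1 of BPA-treated and 1 of control GC-2 spd(ts) cells, with groups taken from the sample titles. The submitters' processing notes name STAR and the builds GRCm38 and mm10 for them, and no source used here gives the circRNA caller. The authors deposited log2 values. With the log2 undone and 1 subtracted, every value of the 9158 circRNAs was an even whole number within 0.001, and that number divided by 2 was taken as the number of back-splice events. The deposited mRNA values, also log2, were whole multiples of 1 step per library in all 22127 genes and were used as deposited with a pseudocount of 1. The deposited miRNA table held read counts, used to choose the miRNAs printed, and the authors' TPM values, which were not used. The p-values quoted are those of the authors' deposited table.

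Events were scaled by TMM factors of edgeR 4.0.16 in R 4.3.3 (1.06 for control and 0.942 for BPA), and 0.5 events were added before log2 ratios, BPA over control. Intervals are exact conditional binomial (Clopper-Pearson) intervals from SciPy 1.17.1, and shares have exact binomial intervals. The scaling's own error is not in them. A circle at 0 in a library was given a limit of 3 events of the total. Exons and introns came from GENCODE M21 and splice sites from the GRCm38.p6 genome, read with pyfaidx 0.9.0.4. The scripts were tested on simulated data. The members, gene lists and rules were chosen with earlier results of these data known. Named circles were the 10 with the most events, the 10 with the largest ratio in each direction whose interval leaves out equality, up to 6 hosts whose circles lie at least 2-fold apart, the 8 hosts with the most circles, the longest and shortest 5, the first 4 hosts of each list and the first 4 circles of each class by events. Some circles and hosts that this rule names are not reported here. Alternatives were scaling by the total, size factors of DESeq2 1.42.0 or none, other filters and other amounts added.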

Additional observations from a re-analysis of the deposited data

How the results depend on the processing

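No paired analysis was possible because each group was 1 library, and for the same reason no replicate could be left out. Of 74 alternatives, 43 left a value within 1.5 times (counts) or within the interval of the main value, and 30 moved it. For medians that interval was across circles or hosts and not one of counting error. The other 1 was counted as a change of sign, which was not done where the main interval held equality. Without scaling, the ratios of the abundant Nfix, Foxn2 and Zfx circles also turned from below to above equality, that of Nfix from -0.08 to 0.20. These are among the 43 and the 30. With 125 circles higher and 32 lower, unscaled events and DESeq2 size factors (both exactly 1) moved the median log2 ratio to 0.44, while scaling by the share of all events of the library turned its sign, at -0.00995. Filters change how many circles are counted: 22 higher and 13 lower at 20 or more events, 319 and 179 at 5 or more, and 4681 and 3067 with no filter, where the median was 1.31 because most circles have 1 event. The exonic share of events was 98.1% in control and 98.6% with BPA among circles with 2 or more events in the library, and 96.5% and 97.1% when each circle counted once. Without the 10 most abundant circles, an alternative chosen after seeing the data, it was 97.3% in control. The median span weighted by events was 5114 bases in control and 5916 with BPA. Circles with 2 or more events numbered 2087 and 2563. Hosts with 2 or more circles fell to 37.0% among circles with 2 or more events and 27.4% among those in both libraries. The difference circular less linear was 0.0423 by the share of all events and 0.49 unscaled. The difference between 4 or more exons and 1 exon, tried after seeing the data, was 0.31 without the 10 most abundant circles and 0.28 for circles under 10 events.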

Other observations

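Summed by chromosome, the interval of the log2 ratio lay above 0 for 13 of 21 chromosomes and below 0 for 0. The ratio over all circles was 0.17, a value that the TMM factors alone set. The interval lay above that 0.17 for 3, chromosomes 1, 12 and 16, and below it for 3, chromosomes 2, 11 and 15. The ratios were highest on chromosomes 12, with 265 and 454 events and a log2 ratio of 0.50 (0.28 to 0.73), and 16, with 488 and 781 and a ratio of 0.40 (0.24 to 0.57), the Y chromosome with its few events aside. They were lowest on chromosome 15, which holds Pvt1, with 849 and 968 and a ratio of -0.08 (-0.22 to 0.05), and on chromosome 11, with 1019 and 1204 and a ratio of -0.03 (-0.15 to 0.09). The Y chromosome gave 2 circles with 0 events in control and 3 with BPA.

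Among the mRNAs of factors that form or break down circRNA, Adar, which edits double-stranded RNA, had a deposited value of 1610 in control and 2811 with BPA, and a log2 ratio of 0.80. The splicing regulator Ptbp1 had 13909 and 8727, a ratio of -0.67, Mbnl1 2726 and 1971, a ratio of -0.47, and Qk, which promotes circle formation, 6698 and 6589, a ratio of -0.02. These were chosen after their values were seen, and their part in the circRNA ratios was not tested.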
